A study of Mus musculus with 6 samples.

Results

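The 35 genes described here encode the working parts of the Wnt pathway: 9 Frizzled receptors, 4 co-receptors, 3 Dishevelled proteins, beta-catenin with 5 proteins of its destruction complex, 6 TCF/LEF factors and Groucho corepressors, 4 feedback targets, and 3 genes of Wnt ligand production and release. They were taken by gene symbol from a deposited table of 17523 entries, and all 35 have a row. RNA was sequenced from FACS-sorted bone marrow cells of C57BL/6 mice, which the series calls hematopoietic stem cells (HSCs). There were 3 libraries labelled WT and 3 labelled NHD13 mutant, the latter from mice with a fusion of the nucleoporin gene NUP98 and the homeobox gene HOXD13, a model of myelodysplastic syndrome. The comparison asks how the fusion changes expression in these cells. The labels give neither the age of the mice, the sort markers, the promoter of the fusion transgene nor the number of animals behind a library, so the p-values measure only the spread between libraries, which may be technical.

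In the canonical Wnt pathway a secreted Wnt protein binds a Frizzled receptor together with LRP5 or LRP6, Dishevelled is recruited, and the destruction complex of Axin, APC, GSK3 and CK1 stops marking beta-catenin for degradation. Stabilised beta-catenin then enters the nucleus and turns TCF/LEF factors, otherwise held off by Groucho proteins, into activators. Among their targets are genes that damp the pathway, such as Axin2, and Axin2 transcript is widely used as a readout of canonical signalling. In blood formation the dose of Wnt signalling has been linked to the balance of self-renewal and differentiation of stem cells.

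Among the tested genes the largest log2 changes were in receptor genes and in a feedback target, all with low counts. Beta-catenin and 5 core genes of its destruction complex (Axin1, Apc, Gsk3a, Gsk3b and Csnk1a1) had far more counts and did not pass the test. Axin2 was 9.08-fold lower in NHD13 than in WT, Fzd4 6.75-fold lower and Fzd6 4.11-fold lower. Ryk, Wls and Tle1 also fell, and Dvl1 rose. For beta-catenin and each of the 5 destruction complex genes the 95% interval of the log2 change lay within 0.5 of 0. Of the 35 genes 26 passed the low-count filter and were tested, of which 6 fell, 1 rose and 19 were not past an adjusted p of 0.05 (edgeR quasi-likelihood test, adjusted over all 12013 genes tested). That is 26.9% of the tested Wnt genes, against 30.3% of all tested genes called in either direction, 15% as higher and 15.3% as lower. The share of Wnt genes called was thus near the background. A fall of at least 4-fold was called for 3 of the 26 Wnt genes and for 1.66% of all tested genes, but these 3 passed the low-count filter through their WT libraries, so nothing is read from this count. Of the 21 Wnt genes at the filter cutoff in every library of both groups, 1 rose and 3 fell. The libraries of the 2 groups did not overlap for 13 of the 26 and for 46.1% of all tested genes. The median log2 change was -0.05 over the 26 and 0.00115 over all tested genes.

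**Figure D1:**
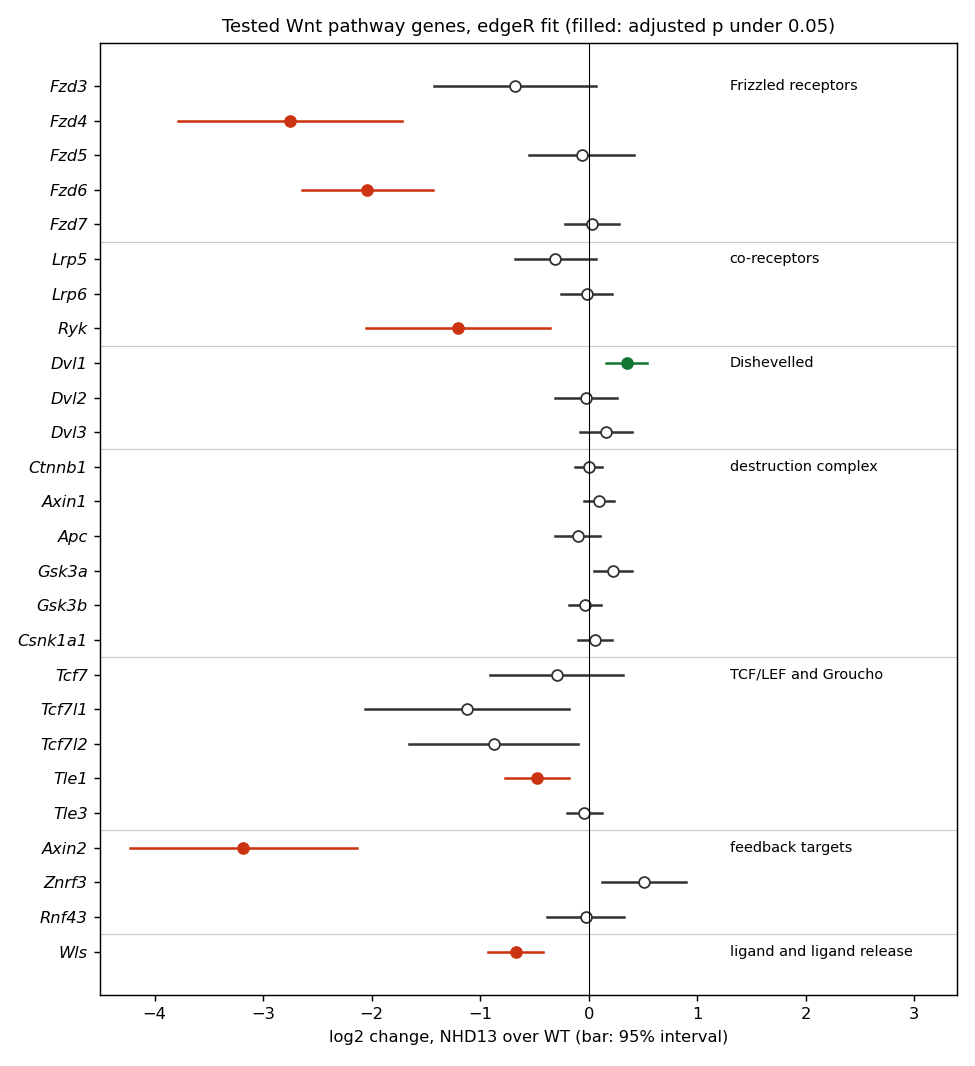
Log2 change (NHD13 over WT) of the 26 tested Wnt pathway genes, grouped by role, with bars for the 95% interval of the edgeR fit on 3 libraries a group. Filled points passed an adjusted p of 0.05. Axin2, Fzd4 and Fzd6 lie at -2.04 or lower, while the genes of the destruction complex lie between -0.10 and 0.22.

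Both groups held RNA of markers of mature blood cells, and the summed levels of several marker lists differed with the genotype. The fusion transcript had 0 counts in WT and 167 to 185 counts in each NHD13 library, as the labels state. Library totals ran from 12541538 to 14388772 counts, and a count of 0 allows up to 0.208 to 0.239 CPM (counts scaled to the library size, with TMM factors) in a library at a floor of 3 counts, counting error only. The progenitor gene Kit averaged 253.9 CPM over the WT libraries and 226.6 CPM over the NHD13 libraries, whereas Procr, a marker of long-term HSCs, had 14 and 7 counts in all. The 13 neutrophil markers summed to 49000 to 63300 CPM in the WT libraries and 36800 to 39700 CPM in the NHD13 libraries, with 7 of 13 lower. NHD13 replicate 1 stood apart from NHD13 replicates 2 and 3 on the second principal component (28.2 against -9.44 and -14.1). All WT libraries and NHD13 replicate 3 held Xist RNA (463 to 1080 CPM and 683 CPM) as well as Y-linked RNA, while NHD13 replicates 1 and 2 had 2.55 and 1.95 CPM of Xist. By these values the NHD13 libraries were not all repeats of a single RNA pool. Y-linked RNA also differed with the genotype, and 3 of the 5 sex genes were called higher in NHD13. Of these, Eif2s3y stood at 37.9 to 53.5 CPM in WT and 55.2 to 89 CPM in NHD13. Kdm5d and Uty were the others, while Ddx3y and Xist were not past the threshold. Y-linked RNA and genotype thus cannot be fully told apart in these libraries. What share of a difference comes from fewer cells of a type and what share from less RNA per cell cannot be told apart in such bulk libraries.

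Marker lists of other cells moved with the Wnt genes that fell. Summed levels of the 6 multipotent progenitor markers were 355 to 419 CPM in WT and 91.5 to 147 CPM in NHD13, and 6 of 6 fell. The 8 monocyte and macrophage markers summed to 1860 to 2140 CPM and to 831 to 1290 CPM, with 7 of 8 lower, and the 7 basophil and mast cell markers to 424 to 729 CPM and to 94.9 to 147 CPM, with 6 of 7 lower. Long-term HSC markers, of which 5 fell and 1 rose among 11 tested, summed to 355 to 386 CPM and to 303 to 326 CPM over the 14 listed. Kit made up most of the HSC sums, at 244 to 269 CPM in WT and 216 to 232 CPM in NHD13. B cell markers (4 of 6 tested lower), dendritic cell markers (5 lower and 2 higher of 9) and megakaryocyte markers (1 lower and 1 higher of 7) summed to 25 to 38.3, 126 to 173 and 66.5 to 79.2 CPM in WT and to 15.5 to 18.4, 112 to 134 and 59.2 to 77.4 CPM in NHD13. The dendritic cell sums were mostly Bst2, Flt3 and Tcf4, which rose from 45.8 to 49.2 CPM in WT to 60.8 to 69.7 CPM in NHD13. These sums hide large falls of rarer markers such as Siglech, Clec9a and Itgax. Erythroid markers went the other way, with 5 of 8 tested members higher and sums of 1270 to 1450 CPM in WT and 1530 to 2430 CPM in NHD13. Most of the erythroid sums was Car1, which did not pass, and Tfrc, which rose. The part of these marker shifts in the Wnt gene differences was not tested. The 12 stromal and endothelial markers summed to 72.5 to 88.8 CPM in WT and 30.1 to 56.6 CPM in NHD13, with 1 of 4 tested members lower. Among them Col3a1 had 0 counts in WT and 1 in NHD13, Sparc 2 and 1, Pdgfra 0 and 2 and the endothelial cadherin gene Cdh5 9 and 0, whereas Pdgfrb had 431 and 312, Lepr 138 and 171, Col1a1 48 and 40 and Pecam1, which blood cells also express, 2665 and 1173. The part of this list in the Wnt gene differences was not tested either.

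Transcripts of Wnt10b and Porcn had few counts, while Wls had many. Wnt10b, a canonical ligand expressed in blood progenitors, had 3, 0 and 1 counts in WT replicates 1 to 3 and 0, 1 and 0 in NHD13 replicates 1 to 3. With 4 counts against 1 the WT over NHD13 ratio was 4.19 with an exact 95% counting interval of 0.415 to 206, so that no difference was detectable at this depth. Porcn, the X-linked acyltransferase that lipid-modifies Wnt proteins, had 3, 8 and 3 counts in WT and 2, 7 and 7 in NHD13, also below the low-count filter.

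Wls, the carrier that takes lipid-modified Wnt proteins to the cell surface, was the member of this role with ample reads (GRCm38 chromosome 3, 159839672 to 159938664). It stood at 135, 127 and 133 CPM in WT replicates 1 to 3 and at 98.6, 75.2 and 74.2 CPM in NHD13 replicates 1 to 3. All NHD13 libraries lay below all WT libraries, and replicate 1 was the NHD13 library closest to WT. Wls fell 1.6-fold, from 131.8 CPM ± 4.13 to 82.7 CPM ± 13.8 (SD, n = 3 each; log2 change -0.67, SE 0.11, edgeR adjusted p = 0.00378). The call was kept under every alternative run except an adjustment for Y-linked RNA, where the adjusted p was 0.0673 (range over 17 alternatives 4.96e-08 to 0.0673).

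Of the other Wnt ligands, 9 of the 18 listed have a row in the table and 1 could be tested. Wnt4 averaged 0.938 CPM ± 0.165 in WT against 1.42 CPM ± 0.0303 in NHD13 and did not pass (log2 change 0.59, edgeR adjusted p = 0.117), and Wnt2b was at 0.567 and 0.618 CPM, below the filter. None was called by DESeq2 or limma-voom either, and 0 of 1 had an unadjusted p under 0.05.

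Frizzled genes, which encode the 7-pass membrane receptors of Wnt proteins, had 2 members that fell. Of the 9, Fzd2 had 0 counts in all 6 libraries, and Fzd1, Fzd8 and Fzd9 were below the low-count filter. Of 5 tested 2 fell and 3 were not past the threshold (40% called, against 30.3% of all tested genes). The median log2 change of the 5 was -0.68, which is the value of Fzd3. Nothing is read from this median, since Fzd4 and Fzd6 were tested through their WT level. Fzd7 was the dominant receptor transcript, at 19, 17.6 and 18 CPM in WT replicates 1 to 3 and 16.4, 18.9 and 20.4 CPM in NHD13 replicates 1 to 3. The groups overlapped, and the log2 change was 0.03 with a 95% interval of -0.22 to 0.28 (edgeR adjusted p = 0.862). Fzd5 likewise had a log2 change of -0.06, with a wider interval of -0.55 to 0.42.

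Fzd4, a receptor known for vascular growth in the retina, was low in WT and close to absent in NHD13 (chromosome 7, 89404355 to 89413134). It had 12, 11 and 18 counts in WT replicates 1 to 3 and 1, 2 and 3 counts in NHD13 replicates 1 to 3, or 1.007 CPM ± 0.224 and 0.141 CPM ± 0.0662 (n = 3 each). Every NHD13 library lay below every WT library, a log2 change of -2.76 (SE 0.45, edgeR adjusted p = 0.004). Of the 12013 tested genes 93 had a larger fall. Nothing is read from this rank, since Fzd4 passed the low-count filter through its WT libraries.

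Fzd6, a receptor of the planar polarity branch that can also restrain canonical signalling, followed the same direction at a higher level (chromosome 15, 39006034 to 39038188). Its values were 2.92, 3.95 and 3.41 CPM in WT replicates 1 to 3 and 0.6, 0.904 and 0.968 CPM in NHD13 replicates 1 to 3. The gap between the groups was wider than the range within either, and the log2 change was -2.04 (SE 0.26, edgeR adjusted p = 0.00151). Fzd4 reached the low-count cutoff in 0 and Fzd6 in 2 of the 3 NHD13 libraries, so both were tested through their WT level. Both calls held when each library was removed in turn and ended after adjustment for Y-linked RNA (adjusted p = 0.099 for Fzd4 and 0.0665 for Fzd6, ranges 0.000217 to 0.099 and 7.77e-06 to 0.0665).

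Fzd3 had 41, 24 and 22 counts in WT and 16, 21 and 20 in NHD13 and did not pass (log2 change -0.68, 95% interval -1.43 to 0.07). The groups did not overlap on the CPM scale, and WT replicate 1 stood above all other libraries. Fzd1 had 6, 4 and 8 counts in WT replicates 1 to 3 and 21, 10 and 15 in NHD13 replicates 1 to 3, so that NHD13 held 2.44 times the WT level, with a 95% counting interval from 1.39 up to 4.47, which covers counting error only. For Fzd8 the counts were 3, 5 and 3 in WT but 0, 1 and 0 in NHD13, where the WT level was 11.5 times that of NHD13 and the counting interval ran from 1.67 up to 496. Fzd9 was read 2, 4 and 3 times in WT, against 8, 4 and 3 times in NHD13. With no low-count filter Fzd8 passed (log2 change -3.1, edgeR adjusted p = 0.0486), while Fzd1, with every NHD13 library above every WT library, did not (1.29, adjusted p = 0.0533, and 0.0507 to 0.161 over its 6 alternatives with a value), nor did Fzd9 (adjusted p = 0.507).

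On the scale of CPM per kb of exon, which allows levels of different genes to be compared, Fzd7 stood at 4.02 ± 0.15 in WT. Fzd6 (0.712 ± 0.106) and Fzd5 (0.708 ± 0.0949) came next and did not differ beyond their spread, followed by Fzd3 (0.171), Fzd4 (0.15), Fzd1 (0.106), Fzd9 (0.0967) and Fzd8 (0.0457). In NHD13 the order was Fzd7 (4.10 ± 0.441), Fzd5 (0.679 ± 0.158), Fzd1 (0.263 ± 0.106), Fzd6 (0.171 ± 0.0407), Fzd9 (0.158 ± 0.0911) and Fzd3 (0.105 ± 0.0105), with Fzd4 at 0.0209. The neighbours from Fzd1 to Fzd9 overlapped within their SD. Fzd6 made up 10%, 13.9% and 11.7% of the summed Frizzled CPM per kb in WT replicates 1 to 3 and 2.42%, 3.33% and 3.52% in NHD13 replicates 1 to 3. The share of Fzd7 was 65.5% to 69.2% in WT and 70.3% to 78.9% in NHD13, while the Frizzled sum was 5.90 to 6.06 CPM per kb in WT and 5.15 to 5.71 CPM per kb in NHD13. These shares are descriptions and were not tested.

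**Figure D2:**
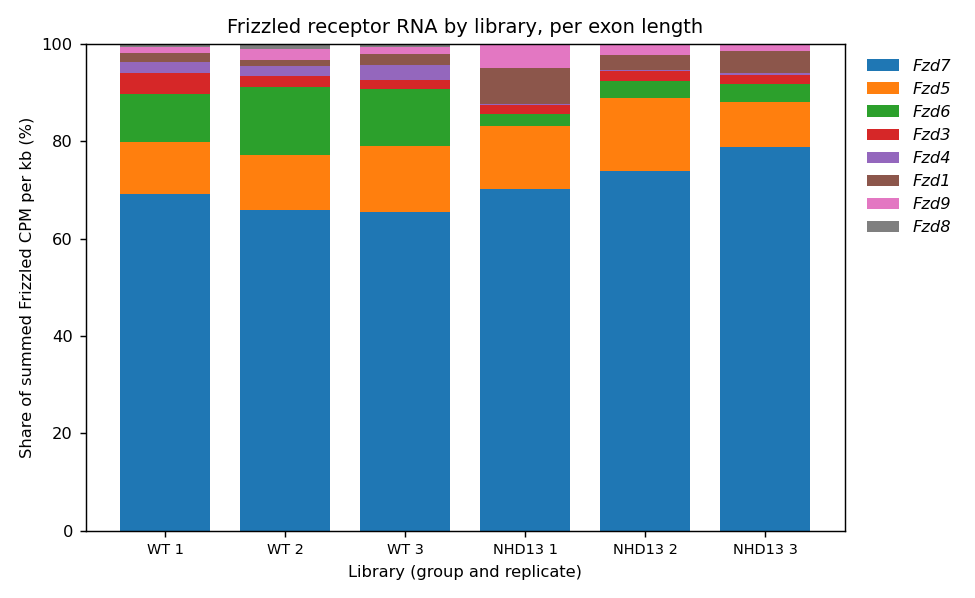
Share of each Frizzled gene in the summed Frizzled CPM per kb of exon (y axis, percent), 1 bar per library. Fzd7 takes 65.5% to 78.9% in every library, and the Fzd6 segment shrinks from 10% to 13.9% in WT to 2.42% to 3.52% in NHD13.

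The start regions of the gene with the largest fall, of the Frizzled gene with the largest fall and of Fzd7, which did not pass, are shown for comparison. They were searched for TCF/LEF words. Each runs 5′ to 3′ from 250 bases before to 50 bases after the start, from RefSeq on GRCm38.p6. The sequences lie on the plus strand at chr11:108920099-108920398 (Axin2), chr7:89404116-89404415 (Fzd4) and chr1:59481897-59482196 (Fzd7). In the GENCODE annotation Fzd7 starts at 59482424, downstream of its window, whereas the GENCODE starts of Axin2 and Fzd4 lie inside theirs. Capitals mark a TCF/LEF word, which is CTTTGAA or else CTTTGAT or else CTTTGTA or else CTTTGTT, read on either strand.
Axin2: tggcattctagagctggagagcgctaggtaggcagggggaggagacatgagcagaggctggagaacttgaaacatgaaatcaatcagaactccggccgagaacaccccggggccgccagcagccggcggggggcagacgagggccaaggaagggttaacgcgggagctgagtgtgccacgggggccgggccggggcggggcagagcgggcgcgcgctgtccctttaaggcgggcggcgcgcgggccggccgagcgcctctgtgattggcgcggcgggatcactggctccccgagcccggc
Fzd4: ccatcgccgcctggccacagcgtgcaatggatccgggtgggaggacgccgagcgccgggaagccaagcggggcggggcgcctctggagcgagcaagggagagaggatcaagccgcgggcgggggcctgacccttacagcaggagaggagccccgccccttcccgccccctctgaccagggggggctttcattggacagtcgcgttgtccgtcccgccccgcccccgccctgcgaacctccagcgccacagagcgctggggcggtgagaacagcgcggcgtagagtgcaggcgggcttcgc
Fzd7: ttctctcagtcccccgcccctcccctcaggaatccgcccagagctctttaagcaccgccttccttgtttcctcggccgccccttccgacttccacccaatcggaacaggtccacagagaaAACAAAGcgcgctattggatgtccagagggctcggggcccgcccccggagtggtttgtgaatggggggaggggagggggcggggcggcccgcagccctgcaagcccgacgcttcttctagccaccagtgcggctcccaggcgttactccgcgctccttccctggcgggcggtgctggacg
The Axin2 and Fzd4 windows held no such word, and the Fzd7 window held 1, read on the minus strand. The table gave 31 start regions for 24 of the 35 genes, and 4 of the 31 held a word (1 start region each of Fzd7, Gsk3a, Lef1 and Tcf7l2), against 16.9% of all 32851 start regions of this length. The word CAATAAA, bound by posterior HOX proteins, was in 0 of the 31 and in 4.6% of all, on either strand. The start regions were rich in G and C, with 70% in the Axin2 window, 72.7% in that of Fzd4 and 66.7% in that of Fzd7, and a median of 67.3% over the 31 against 52.7% over all. A word in these windows is a match of letters and says nothing on binding. Sequence outside the windows, such as introns and distal elements, was not searched, so a window without a word does not show that a gene lacks one.

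Among the co-receptors, LRP5 and LRP6 pair with Frizzled in canonical signalling, while the kinase-like receptors RYK and ROR2 serve mainly noncanonical branches. Of 3 tested genes 1 fell and 2 were not past the threshold (33.3% called, near the 30.3% of all tested genes). Ror2 had 1 count in WT and 2 in NHD13. Lrp6 stood at 73.0, 68.7 and 62.4 CPM in WT replicates 1 to 3 and 77.3, 62.7 and 61.7 CPM in NHD13 replicates 1 to 3 (log2 change -0.02, 95% interval -0.25 to 0.22). Ryk stood at 9.09, 7.07 and 9.13 CPM in WT replicates 1 to 3 and at 2.25, 2.23 and 6.43 CPM in NHD13 replicates 1 to 3 (chromosome 9, 102834917 to 102908305). NHD13 replicate 3 lay close below WT, and the other two NHD13 libraries were far lower. The fitted log2 change was -1.20 (SE 0.37, edgeR adjusted p = 0.0394), from 8.43 CPM ± 1.18 to 3.63 CPM ± 2.42. Removing WT replicates 1, 2 or 3 gave adjusted p-values of 0.0959, 0.0847 and 0.125, and removing NHD13 replicates 1 or 2 gave 0.073 and 0.112. Removing NHD13 replicate 3 gave 0.00188 and a log2 change of -1.92. It was 0.0788 with no low-count filter and 0.364 after adjustment for Y-linked RNA. Replicate 3 is also the NHD13 library with Xist RNA, and whether this has a part in its Ryk level was not tested.

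Lrp5 stood at 76.1, 70.0 and 63.1 CPM in WT replicates 1 to 3 and 73.4, 47.2 and 48.8 CPM in NHD13 replicates 1 to 3. NHD13 replicate 1 lay inside the WT range and the other two below it. Over all libraries Lrp5 did not pass (log2 change -0.31, 95% interval -0.68 to 0.06, edgeR adjusted p = 0.185). It did pass without NHD13 replicate 1, with a log2 change of -0.53 (adjusted p = 0.000231, range over 17 alternatives 9.34e-05 to 0.449).

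Dishevelled proteins relay the signal from the receptor to the destruction complex. Of the 3 genes 1 rose (33.3% called, near the 30.3% of all tested genes). Dvl1 stood at 55.4, 59.6 and 52.0 CPM in WT replicates 1 to 3 and at 64.7, 72.3 and 75.6 CPM in NHD13 replicates 1 to 3 (chromosome 4, 155847402 to 155859303). The groups did not overlap, with replicate 1 the lowest of NHD13. Its 1.27-fold rise had a log2 change of 0.35 (SE 0.08, edgeR adjusted p = 0.0166). Removing WT replicate 1 or 3 ended the call (adjusted p = 0.0516 and 0.0766), as did removing NHD13 replicate 2 or 3 (0.0678 and 0.0747) and adjusting for Y-linked RNA (0.143, range 0.000353 to 0.143). Dvl2 (log2 change -0.03) and Dvl3 (0.16) did not pass.

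Beta-catenin and the enzymes and scaffolds that degrade it had 0 of 6 transcripts called, where 30.3% of all tested genes were called. With 6 genes nothing is read from this count. Ctnnb1, beta-catenin itself, stood at 394, 392 and 391 CPM in WT replicates 1 to 3 and at 382, 394 and 403 CPM in NHD13 replicates 1 to 3. Its log2 change was 0.003 with a 95% interval of -0.12 to 0.13. Csnk1a1, the CK1 alpha kinase that primes beta-catenin, had a log2 change of 0.06 (95% interval -0.10 to 0.21), Gsk3b, the kinase that then phosphorylates it, -0.03 (-0.18 to 0.12), Axin1, the rate-limiting scaffold, 0.10 (-0.05 to 0.24) and Apc, the large scaffold mutated in colon cancer, -0.10 (-0.31 to 0.11). The sixth gene, Gsk3a, was the nearest to a call, at 72.0, 75.0 and 72.4 CPM in WT and 77.9, 90.8 and 87.6 CPM in NHD13 replicates 1 to 3 (log2 change 0.22, edgeR adjusted p = 0.052). It was the 1 gene of the 6 with an unadjusted p under 0.05. DESeq2 and limma-voom called 0 of 6 as well. Without NHD13 replicate 1 Gsk3a passed (adjusted p = 0.00219, range over 17 alternatives 0.00197 to 0.278). On the CPM per kb scale Ctnnb1 (75.6 in WT) stood above Gsk3a (25.2), Csnk1a1 (21.5), Axin1 (20.2), Gsk3b (8.96) and Apc (4.69).

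**Figure D3:**
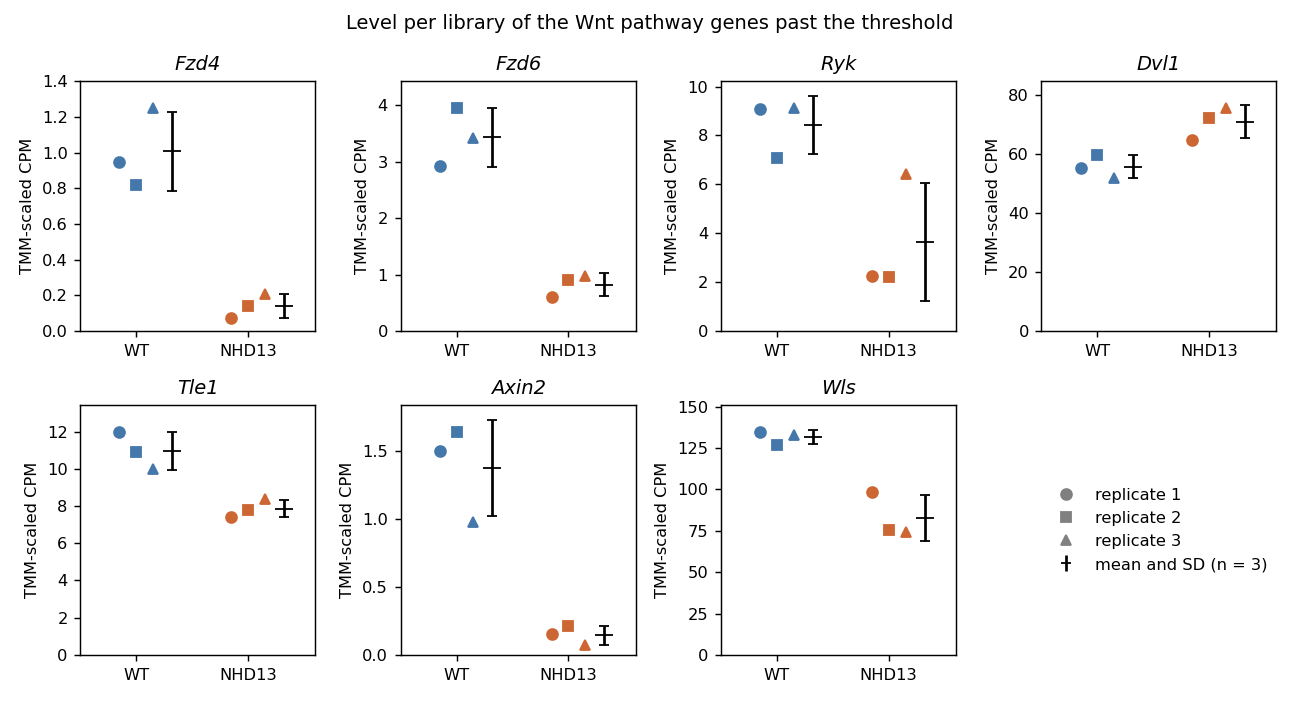
TMM-scaled CPM (y axis, from 0) of the 7 Wnt pathway genes past the threshold in each of the 3 WT and 3 NHD13 libraries, with the mean and SD beside them. The groups do not overlap in any panel, and Ryk in NHD13 replicate 3 (6.43 CPM) lies far from its 2.25 and 2.23 CPM in the other NHD13 libraries.

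TCF/LEF factors bind DNA for beta-catenin, and Groucho proteins (TLE) repress the same sites in its absence. Of 5 tested genes 1 fell and 4 were not past the threshold (20% called, against 30.3% of all tested genes). Tle1 went from 12.0, 10.9 and 9.97 CPM in WT replicates 1 to 3 to 7.43, 7.79 and 8.36 CPM in NHD13 replicates 1 to 3 (chromosome 4, 72117142 to 72200919). The groups were separate, and the 1.39-fold fall had a log2 change of -0.48 (SE 0.13, edgeR adjusted p = 0.0262). Removing any WT library ended the call (adjusted p = 0.0691, 0.0775 and 0.054 for replicates 1 to 3), and so did removing NHD13 replicate 2 or 3 (0.0782 and 0.0578) or adjusting for Y-linked RNA (0.177, range 0.0148 to 0.177). Tle3, the more abundant corepressor, stood at 97.6, 104 and 92.5 CPM in WT and 101, 93.4 and 92.9 CPM in NHD13 (log2 change -0.04, 95% interval -0.20 to 0.12).

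The 4 TCF/LEF genes had few counts. Tcf7, which encodes TCF-1 and is best known from T cell development, was the highest, with 41, 71 and 56 counts in WT replicates 1 to 3 and 60, 37 and 45 in NHD13 replicates 1 to 3, groups that overlapped (log2 change -0.29, 95% interval -0.91 to 0.32). Tcf7l1 had 15, 10 and 13 counts in WT and 9, 4 and 5 in NHD13 (log2 change -1.12, edgeR adjusted p = 0.0694). Tcf7l2 had 17, 32 and 34 counts in WT and 9, 19 and 19 in NHD13 (log2 change -0.87, edgeR adjusted p = 0.0848). For both, every NHD13 library lay below every WT library on the CPM scale, and neither passed. Tcf7l1 passed without NHD13 replicate 1 (adjusted p = 0.0181, range 0.00449 to 0.221) and Tcf7l2 without WT replicate 1 (adjusted p = 0.0477, range 0.0265 to 0.809). Lef1, with 5, 6 and 4 counts in WT against 5, 1 and 5 in NHD13, was below the filter. The T cell receptor subunit gene Cd3e had 12 counts over WT against 19 over NHD13, and the 16 T and NK markers, of which 15 have a row, summed to 198 to 253 CPM in WT and 134 to 243 CPM in NHD13, with 3 of 7 tested members lower. Most of these sums was Nkg7, at 172 to 240 CPM in WT and 122 to 229 CPM in NHD13.

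The feedback genes, which are induced by TCF/LEF and beta-catenin and dampen the pathway, numbered 3 tested, of which 1 fell and 2 were not past the threshold. That is 33.3% called, near the 30.3% of all tested genes. Axin2, a scaffold of the destruction complex, had 19, 22 and 14 counts in WT replicates 1 to 3 and 2, 3 and 1 counts in NHD13 replicates 1 to 3 (chromosome 11, 108920349 to 108950783). That was 1.37 CPM ± 0.35 in WT and 0.143 CPM ± 0.0701 in NHD13, and the highest NHD13 library was far below the lowest WT library. The log2 change was -3.18 (SE 0.46, 95% interval -4.23 to -2.14, edgeR adjusted p = 0.00238), and 53 of the 12013 tested genes had a larger fall. Axin2 was low throughout, with 55 counts in all of WT and 6 in all of NHD13. It reached the low-count filter through WT alone, so nothing is read from the rank of its fall. Of the 7 called genes it was the 1 that stayed past the threshold in each of the 16 alternatives that gave it a value, with log2 changes from -3.56 to -2.87 and adjusted p from 0.000201 to 0.0452. Its paralog Axin1 did not pass, and stood at 20.2 CPM per kb in WT where Axin2 stood at 0.249.

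Znrf3 and Rnf43, which encode membrane ubiquitin ligases that remove Frizzled from the cell surface, did not pass. Rnf43 stood at 8.70, 6.70 and 6.55 CPM in WT replicates 1 to 3 and at 7.20, 7.02 and 7.26 CPM in NHD13 replicates 1 to 3 (log2 change -0.03, 95% interval -0.38 to 0.33). Znrf3, given in full after its values were seen, stood at 7.04, 5.36 and 5.23 CPM in WT and at 7.58, 8.14 and 9.33 CPM in NHD13. All NHD13 libraries were above WT, with a log2 change of 0.51 that just missed the threshold (SE 0.17, edgeR adjusted p = 0.0512). By limma-voom it passed (adjusted p = 0.0461), and so it did on removal of replicate 1 of WT (0.0346) or of NHD13 (0.0141), over a range of 0.00177 to 0.408. Nkd1, an inhibitor that binds Dishevelled, had 0, 2 and 3 counts in WT and 4, 2 and 4 in NHD13, below the low-count filter.

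**Figure D4:**
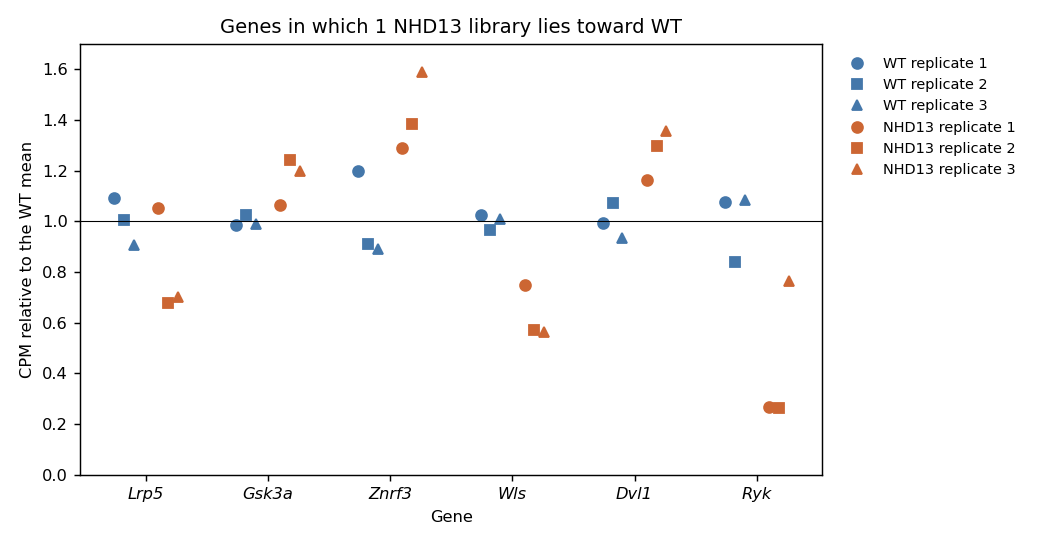
CPM of 6 Wnt pathway genes divided by the WT mean of each gene (y axis), 1 point per library, for genes chosen after their values were seen. NHD13 replicate 1 lies nearest to WT for Lrp5, Gsk3a, Znrf3, Wls and Dvl1, and NHD13 replicate 3 does so for Ryk.

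For Lrp5, Gsk3a, Znrf3, Wls and Dvl1 the NHD13 library nearest to WT was replicate 1. The erythroid markers of that library summed to 1530 CPM, against 2430 and 2330 CPM in NHD13 replicates 2 and 3 and at most 1450 CPM in WT, and its monocyte and macrophage markers to 1290 CPM against 831 and 840 CPM. The part of these marker differences in the Wnt gene values was not tested. For the other called genes, Fzd4, Fzd6, Axin2, Tle1 and Ryk, replicate 1 lay below or within the other NHD13 libraries, at 0.075, 0.6, 0.15, 7.43 and 2.25 CPM. For Tle1 it was the NHD13 library farthest from WT.

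Other genes of the pathway, from lists chosen by role, were read in the same fit. Of 24 listed R-spondins, Lgr receptors and secreted inhibitors, 19 have a row and 6 were tested, of which 1 rose and 2 fell (50% called, against 30.3% of all tested genes). Sfrp4, a secreted decoy that binds Wnt proteins, rose from 1.66, 1.56 and 1.53 CPM in WT to 6.45, 6.82 and 8.09 CPM in NHD13 (log2 change 2.16, SE 0.19, edgeR adjusted p = 0.000237) and stayed past the threshold under all 17 alternatives. Lgr4, the R-spondin receptor that protects Frizzled from ZNRF3 and RNF43, fell from 2.92, 2.75 and 4.11 CPM to 0.6, 1.25 and 0.760 CPM (log2 change -1.89, edgeR adjusted p = 0.00431). Apcdd1, a membrane inhibitor of Wnt signalling, fell from 1.83 CPM ± 0.752 to 0.549 CPM ± 0.13 (edgeR adjusted p = 0.0125). The call of Apcdd1 was lost without NHD13 replicate 3 (adjusted p = 0.0504), which left 1 falling gene in this list. Both falling genes needed WT libraries to reach the filter, and both calls ended after adjustment for Y-linked RNA (0.0966 for Lgr4 and 0.26 for Apcdd1, with ranges of 0.00012 to 0.0966 and 0.000754 to 0.26).

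In the cytoplasm, 21 of 26 further regulators of the destruction complex were tested, with 2 higher, 2 lower (19% called, against 30.3% of all tested genes) and a median log2 change of 0.04. Csnk1e, the CK1 epsilon kinase that phosphorylates Dishevelled, fell from 39.9 CPM ± 6.78 to 23.3 CPM ± 2.03 (log2 change -0.78, edgeR adjusted p = 0.00424). Ppp2r5a, a regulatory subunit of protein phosphatase 2A, fell with a log2 change of -0.32 (adjusted p = 0.0154), and Csnk2b, the regulatory subunit of casein kinase 2, rose with one of 0.21 (0.0292). On removal of NHD13 replicate 1 the list had 7 higher and 5 lower genes. It had 0 higher genes on removal of any other library, and 1 lower gene on removal of replicate 2 or 3 of either group. Csnk2b lost its call on removal of any WT library (adjusted p = 0.0752, 0.0749 and 0.107), of NHD13 replicate 2 (0.147) or 3 (0.109), and with upper-quartile scaling (0.0584). Ppp2r5a lost it on removal of replicate 2 or 3 of WT (0.0666 and 0.0529) or of NHD13 (0.0645 and 0.0633). Adjusting for Y-linked RNA ended all 3 calls (0.132, 0.152 and 0.304 for Csnk1e, Ppp2r5a and Csnk2b), the upper ends of ranges that began at 8.06e-06, 3.48e-05 and 0.00228.

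Among 18 tested nuclear partners of beta-catenin, 3 rose and 3 fell (33.3% called, near the 30.3% of all tested genes), with a median log2 change of -0.03. Ruvbl1 and Ruvbl2, paired ATPases of chromatin remodelling complexes, both rose. Ruvbl1 averaged 102.6 CPM ± 5.26 in WT, against 133.2 CPM ± 8.55 in NHD13 (log2 change 0.38, edgeR adjusted p = 0.00725), and Ruvbl2 135.9 CPM ± 7.17 against 171.5 CPM ± 7.21 (log2 change 0.34, adjusted p = 0.00789). Ctnnbip1, which blocks the binding of beta-catenin to TCF, fell from 4.2 CPM ± 0.561 to 2.21 CPM ± 0.313 (log2 change -0.92, edgeR adjusted p = 0.0127) and lost its call without WT replicate 2 (0.0511) or NHD13 replicate 3 (0.0529). The number of falling genes in this list was 0 without WT replicate 2 or NHD13 replicate 3, 1 without WT replicate 3 or NHD13 replicate 2, and 5 without NHD13 replicate 1. After adjustment for Y-linked RNA the adjusted p was 0.177, 0.195 and 0.0804 for Ruvbl1, Ruvbl2 and Ctnnbip1, the highest over 17 alternatives, with lowest values of 1.01e-05, 2.96e-05 and 0.00246.

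In the planar polarity and calcium branch, 22 genes were tested, of which 5 rose and 2 fell (31.8% called, near the 30.3% of all tested genes, with a median log2 change of -0.18). Camk2d, a calcium/calmodulin-dependent kinase, fell from 7.11, 8.71 and 8.71 CPM to 3, 2.50 and 3.04 CPM (log2 change -1.52, SE 0.17, edgeR adjusted p = 0.000843) and kept its call under all 17 alternatives. Daam1, a formin that binds Dishevelled, rose from 64.7 CPM ± 1.10 to 97.7 CPM ± 17.7 (log2 change 0.60, edgeR adjusted p = 0.00886), and Nfatc3, a calcium-regulated transcription factor, rose from 161.2 CPM ± 5.98 to 192.2 CPM ± 6.24 (adjusted p = 0.0163). The number of rising genes was 2 without WT replicate 1 or 2, 1 without WT replicate 3 or NHD13 replicate 2 and 3 without NHD13 replicate 3. The number of falling genes was 10 without NHD13 replicate 1 and 1 without any other library. Nfatc3 lost its call without WT replicate 2 (adjusted p = 0.0652), WT replicate 3 (0.0563) or NHD13 replicate 2 (0.0774). After adjustment for Y-linked RNA it was 0.301 for Nfatc3 and 0.128 for Daam1, in ranges that began at 0.00228 and 2.83e-07.

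Of 8 tested genes listed as readouts of canonical signalling 2 rose and 0 fell (25% called, near the 30.3% of all tested genes). By edgeR 4 had an unadjusted p under 0.05 in either direction, and DESeq2 and limma-voom called 2 each. Ccnd1, cyclin D1, rose from 16.3, 20.5 and 18.3 CPM in WT to 29.3, 34.9 and 34.7 CPM in NHD13 (log2 change 0.84, SE 0.12, edgeR adjusted p = 0.00188) and kept its call under all 17 alternatives. Tcf4 also rose, to 65.15 CPM ± 4.46 from 47.6 CPM ± 1.68 (adjusted p = 0.00431, and 0.0559 after adjustment for Y-linked RNA, range 6.29e-05 to 0.0559). This symbol stands for the E protein E2-2, not for the TCF-4 protein made by Tcf7l2. Tcf4 is also in the list of dendritic cell markers, so its rise is not read as one of canonical signalling. Myc did not pass, averaging 165.7 CPM and 155.7 CPM (log2 change -0.09, 95% interval -0.39 to 0.21, adjusted p = 0.636). Without NHD13 replicate 1, 1 gene of this list fell.

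**Figure D5:**
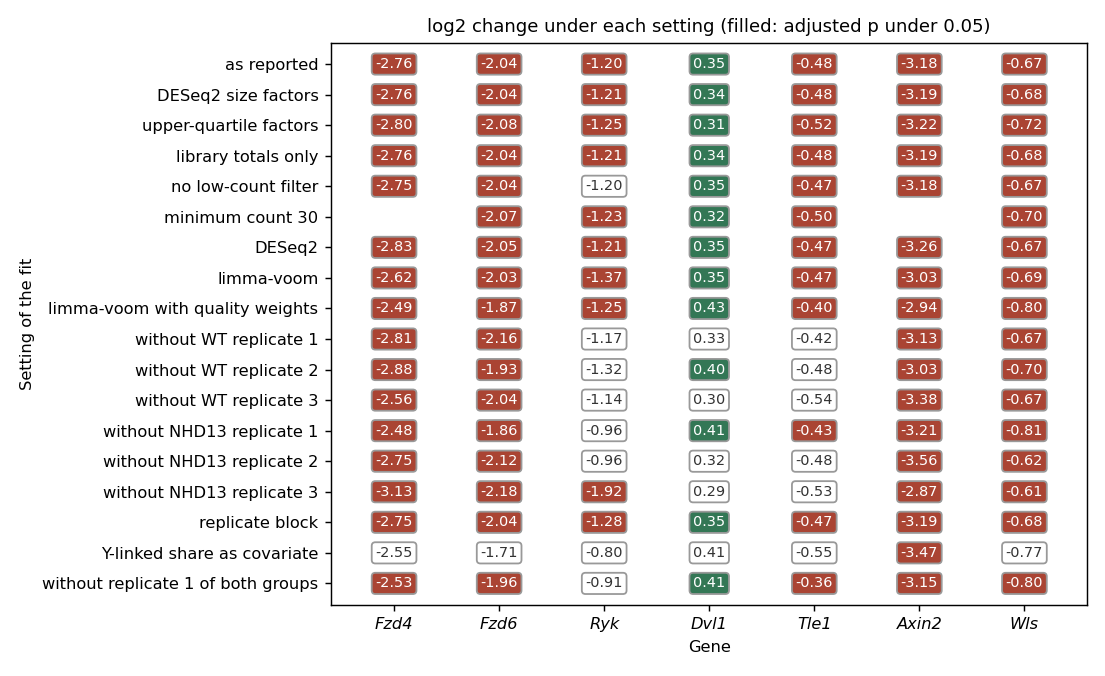
Log2 change (printed in each cell) of the 7 called Wnt pathway genes (columns) under the reported setting and 17 alternatives (rows), filled where the adjusted p was under 0.05; empty cells gave no value. Axin2 is filled in every cell with a value, and Ryk, Dvl1 and Tle1 lose the fill in several rows that leave out a library.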

How the data were processed

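RNA sequencing counts of 3 WT and 3 NHD13 libraries were used. The authors deposited raw counts per gene symbol, not normalised, whose columns were matched to samples by group letter and replicate number. Bowtie2 2.2.1, HTSeq 0.5.4p3 and mm10 are named per the submitters' processing notes; annotation and strand setting were not given in the sources used here. Reads of overlapping genes on opposite strands therefore cannot be told apart. Among the called genes this touches exons of Fzd6, Dvl1, Tle1 and Axin2.

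All genes were fitted in edgeR 4.0.16 (R 4.3.3): filterByExpr with a minimum count of 10 (0.718 CPM in at least 3 libraries), TMM scaling, robust quasi-likelihood F test by group, Benjamini-Hochberg adjustment over 12013 genes, threshold 0.05, two-sided. SE is the log2 change over the square root of F. Counting intervals are exact at 95%. No pair of libraries differed by as little as sampling noise (chi-square per degree of freedom 3.459 or more), and all were kept. The fits of edgeR, DESeq2 and limma-voom were tested on simulated data. Alternatives used DESeq2 1.42.0 and limma 3.58.1. Adjustment for Y-linked RNA added the log2 share of counts of 4 Y-linked genes as a covariate.

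Positions and exon lengths come from GENCODE vM21 (GRCm38, the assembly of mm10), matched by symbol for 35 of 35 genes. The genes and lists were chosen with earlier results of these data known. Genes given in full are those past the threshold, the untested ones with 3 or more counts in a library and the most abundant of each role, and from each further list the 3 with the lowest p among those called, or else the 2 most abundant. Lrp6, Fzd3, Gsk3a, Tcf7, Tcf7l1, Tcf7l2, Znrf3, Myc and the separate marker genes were added after their values were seen.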

Additional observations from a re-analysis of the deposited data

How the results depend on the processing

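Over 26 tested Wnt genes and 17 alternatives, 393 of 437 values kept their side of the threshold, 22 lost a call, 22 gained one and 0 called values changed sign. Most of these values belong to genes that were not called. For the called genes 95 of 117 values stayed called. There were 25 values of the other sign, in 9 genes, none of them called. Genes called higher in NHD13 (1799 as reported) and lower (1839) numbered 3250 and 3208 by limma-voom with quality weights, 103 and 193 after adjustment for Y-linked RNA (the covariate), and 3244 and 3245 without replicate 1 of both groups, a setting chosen after seeing the data. Leaving out 1 library gave 760 to 3012 higher and 957 to 2966 lower genes. Of the Wnt genes, 1 was called higher and 6 lower. The number higher was 2 by limma-voom, 3 with quality weights, 0 with the covariate, 3 without replicate 1 of both groups and 0 to 3 with 1 library left out (3 without NHD13 replicate 1, 0 without WT replicate 3 or NHD13 replicates 2 or 3). The number lower was 1 with the covariate and 4 to 7 with 1 library left out. The groups account for 58.2% of the variance of the covariate. Deviations of same-numbered libraries of the 2 groups correlated at 0.249, 0.0632 and 0.175, and those of differently numbered libraries at -0.235 to 0.149. Whether the replicate numbers pair the libraries was not tested. The replicate block gave 2 Wnt genes higher and 9 lower. A minimum count of 30 left Fzd4 and Axin2 untested. No scaling moved the median log2 change of all genes by over 0.1 (-0.0419 with upper-quartile factors). With no low-count filter 34 of the 35 Wnt genes had a value, and the 6 called lower then included Fzd8 (adjusted p = 0.0486) and not Ryk (0.0788). DESeq2 gave 31 Wnt genes a value.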
